A study of Mus musculus with 12 samples.

Results

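The genes described here encode mouse ATP-binding cassette (ABC) proteins of subfamilies A to G, taken as every listed gene whose symbol starts with Abc, a letter from a to g and a digit, without the cholesterol exporters Abca1 and Abcg1. The rule found 33 genes of the 22935 listed, 8 each in subfamilies A and B, 7 in C, 4 in D, 1 in E, 3 in F and 2 in G. ABC proteins that still carry their older names, such as the peptide transporter subunits Tap1 and Tap2, are not among them and are given separately.

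The RNA came from BV2, a line of immortalised microglia of the mouse, and the title of the study ties the C3/C3aR pathway of microglia to injury of white matter in an experimental model of subarachnoid haemorrhage. All 3 groups analysed here received 10 µM oxyhaemoglobin (oxy-Hb), the haemoglobin set free when red cells lyse in a bleed, and they differed in what was added to it, which was nothing, C3a or C3aRA, with 3 libraries each. C3a, the fragment of complement component C3 that binds the receptor C3aR, was given at 20 ug/ul as the label has it, which is high enough for a peptide that the unit is uncertain, and C3aRA, an abbreviation left unexplained in the labels, at 50 µM. Another 3 samples, given PBS, were not analysed here, and no value below measures the response to oxy-Hb itself.

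ABC proteins bind and hydrolyse ATP on a conserved pair of nucleotide-binding domains. In subfamilies A, B, C, D and G those domains power or gate the passage of lipids, peptides, metal complexes, conjugated metabolites, drugs or vitamins across the plasma membrane, the lysosome, the peroxisome or the inner mitochondrial membrane. Members of subfamilies E and F lack membrane-spanning segments and act on ribosomes. In microglia and macrophages, A members take part in lipid handling during phagocytosis, and C members export glutathione conjugates and leukotriene C4.

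The labels do not say whether the 3 libraries of a group came from separate cultures, so the p-values reflect only how far these samples spread, and that spread may be technical. In bulk RNA of a cell population, fewer cells with a transcript and less of it per cell cannot be told apart. Library totals ran from 12934794 to 20479002 counts. All 10 microglial marker genes were tested and summed to 1919 to 2701 CPM (counts scaled to a common library total) a library, while the astrocyte, neuron and red cell lists each stayed at or below 1.62 CPM, the endothelial and fibroblast list at or below 2.07 CPM and the oligodendrocyte list at or below 35.9 CPM. Those other sums rest on few genes. Listed were 1 of 5 astrocyte, 1 of 5 neuron and 2 of 6 red cell markers. For endothelial or fibroblast markers it was 2 of 8, and for oligodendrocyte markers 3 of 6. Means of the microglial genes ran from 2.03 CPM for Aif1 to 910 CPM for Cd68. The second library of oxy-Hb with C3a stood apart from the other 8. Genes of ribosomal proteins made up 60329 CPM of it but 35400 to 42078 CPM of the others, and its levels fell with transcript length, by 0.14 (log2) per length doubling across all tested genes, against slopes of -0.002 to 0.045 in the others. It was the lowest of the 9 libraries for 18 of the 29 tested ABC genes and the highest for 2. What part library composition has in those results was not tested.

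Promoter windows show what sequence lies before the start of the genes that the C3a comparison turns on. The 250 bases upstream of the RefSeq transcription start (build GRCm38.p6) were on hand for 23 of the 33 genes, and of the 5 that were lower with C3a these were Abca2 (chr2:25428349-25428598, plus strand), Abca7 (chr10:79996244-79996493, plus strand) and Abcc10 (chr17:46328024-46328273, minus strand). They are printed 5′ to 3′ with the GC box, GGGCGG on either strand, in capitals.
Abca2: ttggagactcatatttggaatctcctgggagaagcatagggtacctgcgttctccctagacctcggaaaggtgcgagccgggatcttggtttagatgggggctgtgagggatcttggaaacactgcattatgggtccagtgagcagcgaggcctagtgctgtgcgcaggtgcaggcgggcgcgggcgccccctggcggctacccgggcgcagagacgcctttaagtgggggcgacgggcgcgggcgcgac
Abca7: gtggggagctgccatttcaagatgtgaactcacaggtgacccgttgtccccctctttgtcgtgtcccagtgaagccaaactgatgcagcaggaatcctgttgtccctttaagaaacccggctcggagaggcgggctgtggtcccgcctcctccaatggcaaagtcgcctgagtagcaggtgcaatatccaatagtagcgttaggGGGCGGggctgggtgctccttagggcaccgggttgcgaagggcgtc
Abcc10: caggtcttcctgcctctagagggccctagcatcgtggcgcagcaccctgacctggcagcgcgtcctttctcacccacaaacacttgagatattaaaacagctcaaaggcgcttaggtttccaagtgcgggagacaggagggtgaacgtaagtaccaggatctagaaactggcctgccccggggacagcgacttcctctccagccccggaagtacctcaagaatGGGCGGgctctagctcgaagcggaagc
The Abca7 window held 1 GC box, 40 bases before the start, and 2 CCAAT motifs, and the Abcc10 window held 1 GC box, 21 bases before the start, and 1 match to TGACNNNGC, the core of the antioxidant response element. The Abca2 window had no match to any of the 6 motifs searched, although 63.2% of its bases are G or C, against 58.8% for Abca7 and 58.0% for Abcc10. The RefSeq start of Abcc10 lies 329 bases inside the deposited gene, counted from its 5′ end. Its window, with both matches, therefore lies within the deposited gene model and not upstream of it. The RefSeq start of Abca2 lies 104 bases from the deposited start.

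Over the 23 windows the GC box was found in 12, or 52.2%, against 32.7% of 32851 promoter windows of the same length, counting both strands. CCAAT was found in 7 (30.4%, against 33.8%), the E-box CACGTG in 2 (8.7%, against 6.0%), TATAAA in 1 (4.3%, against 12.4%), TGACNNNGC in 3 (13%, against 10.2%) and the cAMP response element TGACGTCA in 1, that of Abce1 (4.3%, against 1.5%). These are letter matches in a window of 250 bases and were not measured as binding sites. The RefSeq start used for Abcb1a lies 92986 bases from the deposited start of that gene. Its window, counted here, is therefore not that of the deposited gene model.

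Of the 33 genes, 29 had enough counts to be tested. Abca17, Abcb1a, Abcb6 and Abcb11 did not, with means of 0.277 to 0.391 CPM over the 9 libraries, and 5 genes lay below 1 CPM when Abcg4 at 0.881 CPM is added. Another 24 reached 10 CPM and 5 reached 100 CPM. To set genes side by side, CPM was divided by the length of the longest annotated transcript in kilobases (CPM per kb).

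Of the ribosome-acting subfamilies, Abce1, Abcf2 and Abcf1 stood highest of the 33 genes. Abce1, the ATPase that splits ribosomes after termination, had a level of 188 CPM per kb and alone made up 30.5% of the summed CPM of the 33 genes. Abcf2 followed at 66.8 and Abcf1, which binds initiation factor eIF2, at 56.3 CPM per kb. The translation-linked Abcf3, at 21.1 CPM per kb, stood below Abcd4, Abcc1 and Abcd3. Abce1 counted 649, 678 and 725 CPM with oxy-Hb, 760, 666 and 800 with C3a and 725, 724 and 693 with C3aRA, ranges that overlap.

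Membrane transporters of high level included Abcd4, which moves cobalamin out of the lysosome, at 26.3, Abcc1, the classical exporter of leukotriene C4 and glutathione conjugates, at 22.5, and Abcd3, a peroxisomal fatty acid importer, at 22.2 CPM per kb.

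Subfamily A genes were of middling to low level, from 9.67 CPM per kb for Abca5 to 2.51 for Abca6 among those tested. Abca5, Abca6, Abca8b and Abca9 lie near each other on the minus strand of chromosome 11. Abca9 stood at 5.15, Abca8b at 4.99, the endolysosomal lipid transporter Abca2 at 4.66, the phospholipid exporter Abca7 at 3.92 and Abca3, the lipid pump of surfactant lamellar bodies, at 3.80 CPM per kb. In subfamily B, P-glycoprotein was represented by Abcb1b at 17.0 CPM per kb, while its near copy Abcb1a was at 0.0783. Those 2 transcripts share 768 stretches of 50 bases, 18.0% of the Abcb1b transcript, so the split between them is uncertain. The phosphatidylcholine floppase Abcb4 was at 11.2 and the mitochondrial Abcb8 and Abcb10 at 7.43 and 3.49 CPM per kb.

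In subfamily C, Abcc5 followed Abcc1 at 14.6, Abcc8 at 10.0, the cyclic nucleotide exporter Abcc4 at 6.64, Abcc10 at 1.31, Abcc3 at 1.01 and Abcc2 at 0.314 CPM per kb. Abcc8 encodes the sulphonylurea receptor SUR1, a regulatory subunit of ATP-sensitive potassium channels and of the SUR1-TRPM4 channel. Its usual potassium channel partners Kcnj8 and Kcnj11 were not found among the listed genes and could not be analysed here. The peroxisomal fatty acid importer Abcd2 was at 7.69 and the multidrug pump Abcg2 at 1.31 CPM per kb.

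**Figure D1:**
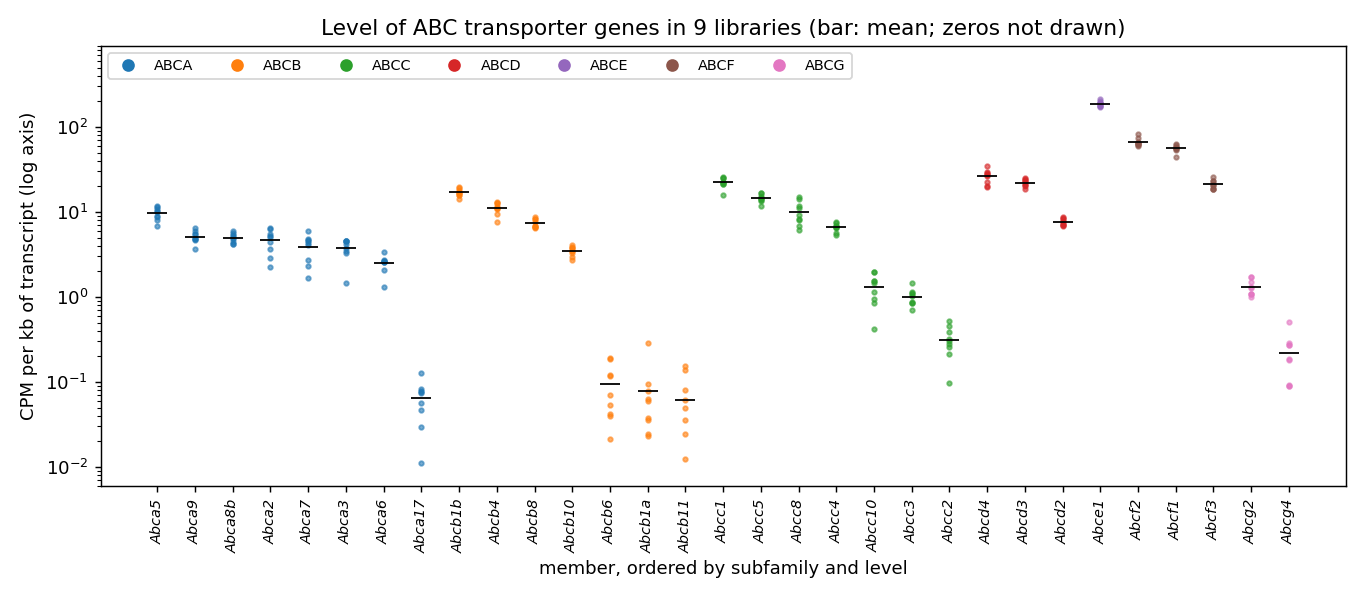
Level of 31 of the 33 ABC genes in the 9 libraries, in CPM per kb of transcript on a log axis. Points are libraries, bars are means and colours are subfamilies, and Abce1 at 188 CPM per kb is the highest while Abcb11 at 0.0616 is the lowest.

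Adding C3a to oxy-Hb lowered 5 ABC genes and raised none. Abcc8, Abca2, Abca7, Abcc10 and Abcd4 fell, by 1.43 to 2.45 fold. They were 5 of 29 tested members with an adjusted p below 0.05 in edgeR's quasi-likelihood test with Benjamini-Hochberg adjustment over all genes, where 3.94% of all tested genes were called, 3.04% lower and 0.905% higher. The 5 come from the lipid transporters (A), the conjugate and channel-regulating subfamily (C) and the lysosomal cobalamin exporter in D. None of the 5 tested B members, none of the E and F members and neither G member was called.

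Abcc8 (chr7:46104523-46180033) was at 68.6, 73.6 and 57.4 CPM with oxy-Hb, 33.6, 30.0 and 39.0 CPM with C3a and 44.5, 40.3 and 53.8 CPM with C3aRA. All 3 C3a libraries lay below all 6 others, and the C3aRA libraries lay below the oxy-Hb ones. The log2 fold change with C3a was -0.96 ± 0.14 (SE) with an adjusted p of 0.00345 in edgeR. The antisense gene Gm45486 overlaps 7217 bases of Abcc8 and carried 323 counts over the 9 libraries.

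Abca2 (chr2:25428703-25448540) was at 52.5, 50.1 and 44.8 CPM with oxy-Hb and at 29.6, 18.2 and 23.4 CPM with C3a. The C3aRA libraries, at 36.1, 40.5 and 41.6 CPM, lay between, and none of the 3 groups overlapped. With C3a its log2 fold change was -1.05 ± 0.16 with an edgeR adjusted p of 0.00345. Abca7 (chr10:79996494-80015572) was at 39.6, 29.1 and 30.6 CPM with oxy-Hb and at 15.3, 11.2 and 18.5 CPM with C3a. Its C3aRA libraries, at 31.7, 32.3 and 27.5 CPM, overlapped those of oxy-Hb alone. The Abca7 log2 fold change with C3a was -1.14 ± 0.18 with an edgeR adjusted p of 0.00433.

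Abcc10 (chr17:46303221-46328352), a drug exporter of broad specificity, was the least abundant of the 5. It was at 10.4, 10.4 and 7.68 CPM with oxy-Hb, 5.03, 2.18 and 4.43 CPM with C3a and 5.97, 8.04 and 8.20 CPM with C3aRA. The counts behind the C3a values were 85, 42 and 75, and the lowest of them came from the library that stands apart. Abcc10 gave a log2 fold change of -1.29 ± 0.28 and an edgeR adjusted p of 0.0232. Abcc10 did not pass when oxy-Hb replicate 1 or oxy-Hb replicate 2 was left out, with edgeR adjusted p up to 0.143.

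Abcd4 (chr12:84601464-84617413) was at 83.1, 68.6 and 63.8 CPM with oxy-Hb and at 46.9, 54.7 and 49.1 CPM with C3a, while C3aRA libraries counted 71.7, 65.6 and 67.0 CPM. The C3a libraries were below all others, and here the library that stands apart was the highest of the 3. The log2 fold change was -0.52 ± 0.12 with an edgeR adjusted p of 0.0306. This call held in 3 of the 9 fits that each left out a library, and was lost without oxy-Hb replicate 1 or 2, C3a replicate 3 or any C3aRA replicate, with adjusted p up to 0.201 in edgeR.

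**Figure D2:**
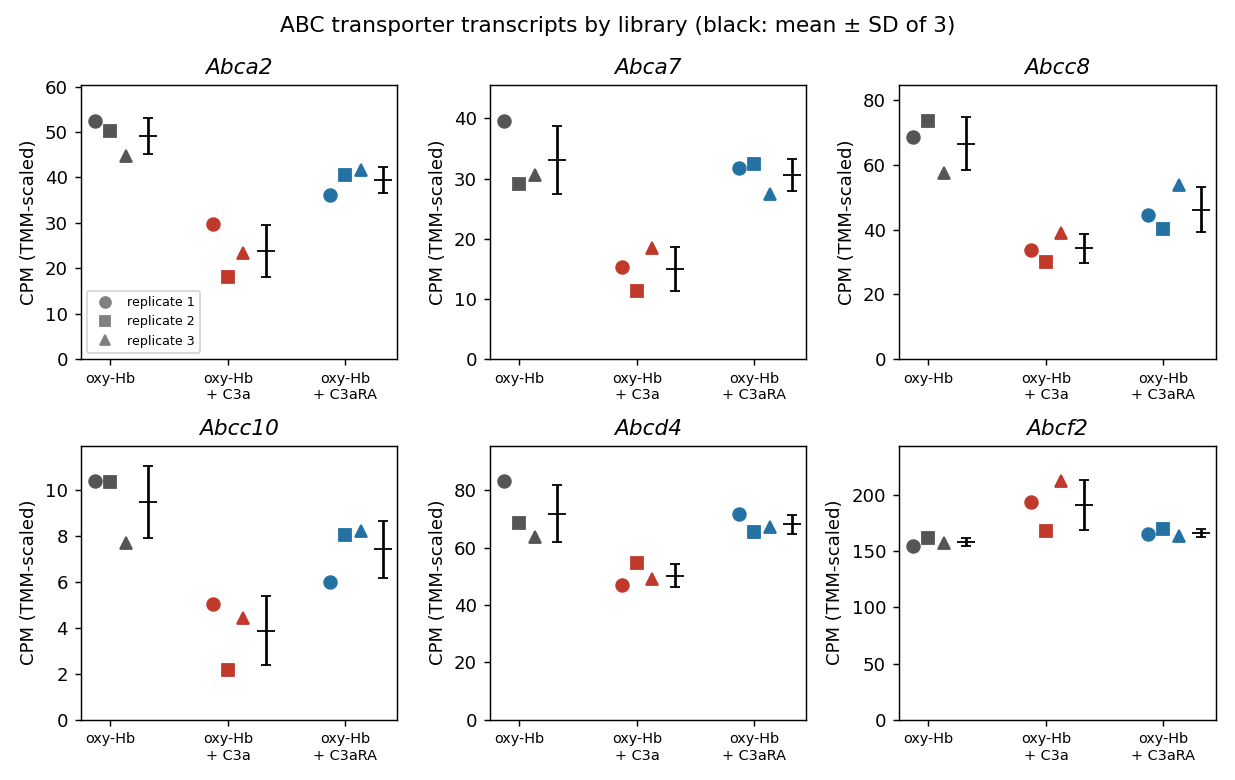
TMM-scaled CPM of 6 ABC genes by library, with replicates 1 to 3 as circles, squares and triangles and the mean ± SD of each group in black. For Abca2, Abca7, Abcc8, Abcc10 and Abcd4 every C3a library lies below every library of the other groups, and for Abcf2 the C3a libraries overlap those of C3aRA.

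The tested members leaned to lower values with C3a, with 19 below 0 and 10 above, and a median log2 fold change of -0.11 beside 0.00 over all tested genes. In subfamily A, 6 of 7 were below 0, 2 were called and the median was -0.28, and in subfamily C, 5 of 7 were below 0, 2 were called and the median was -0.26. Without C3a replicate 2, 4 of 7 were below 0 in subfamily A, with a median of -0.27 and Abca5, Abca6 and Abca9 above 0, and 5 of 7 in subfamily C, with a median of -0.19. Summed over its 8 members, subfamily A was at 254 to 292 CPM with oxy-Hb, 158 to 235 with C3a and 271 to 282 with C3aRA, the lowest sum coming from the C3a library that stands apart. Subfamily B had a median of -0.06 and D of -0.09, with the peroxisomal Abcd3 at 0.22, not called. The translation-linked subfamily F had a median of 0.27. Microglial markers lay the other way, with 10 of 10 above 0. The integrin Itgam was the 1 called, higher (0.69 ± 0.18, edgeR adjusted p 0.0498), where 0.905% of all tested genes were called higher. Without C3a replicate 2, 8 of 10 were above 0. Itgam (0.38) and Csf1r (0.34) were then called higher, where 9.55% of all genes were called. The summed level of the markers was 1919 to 2109 CPM with oxy-Hb, 2149 to 2701 with C3a and 2066 to 2191 with C3aRA. Its highest value came from the C3a library that stands apart. The part of this level in the ABC values was not tested.

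Groups did not overlap for 12 tested members, 10 lower and 2 higher, against 27.8% of all tested genes, 14.6% lower and 13.2% higher. The 2 higher ones were Abcf2 and Abcf3. Abcf2 was at 155, 162 and 157 CPM with oxy-Hb and at 193, 168 and 212 CPM with C3a, a log2 fold change of 0.28 ± 0.10 with an edgeR adjusted p of 0.125. Abcf3 gave 0.27 ± 0.12 with an edgeR adjusted p of 0.174. The lower ones beside the 5 called included Abca3, Abca8b, Abcc5 and Abcc2. Abca3 was at 29.3, 24.5 and 29.3 CPM with oxy-Hb and at 22.3, 9.57 and 21.2 CPM with C3a, with a log2 fold change of -0.65 ± 0.24 (edgeR adjusted p 0.124) that was -0.35 without C3a replicate 2. Without that library, groups did not overlap for 11 lower and 8 higher of 30 members. Smaller groups overlap less often, and the share of all genes in that fit is not given here.

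Members that were not called show the spread of this family under C3a. Abcc1 was at 171, 153 and 147 CPM with oxy-Hb and at 151, 108 and 147 CPM with C3a, with the library that stands apart as the lowest. Its log2 fold change of -0.21 was -0.08 without that library. In Abcb1b the values were 71.1, 77.8 and 73.4 CPM with oxy-Hb and 67.4, 62.1 and 83.4 CPM with C3a, which overlap, and the 95% interval of its log2 fold change was -0.34 to 0.21. The peroxisomal importer Abcd3 had 64.7, 71.1 and 74.2 CPM with oxy-Hb and 83.0, 72.8 and 88.3 CPM with C3a, and 84.2, 80.2 and 78.1 CPM with C3aRA. Only the C3aRA libraries were all above the oxy-Hb ones for this gene.

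Low members were measured less well. Abcc2, the canalicular exporter of bilirubin and drug conjugates in liver, was at 3.08, 2.43 and 4.15 CPM with oxy-Hb and at 2.25, 0.780 and 2.07 CPM with C3a. These groups did not overlap, yet the log2 fold change of -0.93 ± 0.42 had an edgeR adjusted p of 0.198. It was -0.58 (edgeR adjusted p 0.387) without C3a replicate 2, which holds the lowest of these values. The sterol transporter Abcg4 was at 2.01, 1.16 and 0.366 CPM with oxy-Hb and at 0.355, 0.728 and 0.354 CPM with C3a, with 6 to 32 counts a library. Its log2 fold change of -1.27 carried an SE of 0.63, and its 95% interval ran from -2.63 to 0.08. Abcg2 was at 7.35, 6.18 and 6.16 CPM with oxy-Hb and at 6.15, 9.83 and 8.50 CPM with C3a, which overlap, and its log2 fold change of 0.32 was 0.15 without C3a replicate 2.

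Without C3a replicate 2, the same 5 genes were lower and Abcf2 was called higher, 6 of 30 tested members where 9.55% of all genes were called. Abcb11, too low to be tested with all 9 libraries, was among the 30, at 0.63 ± 1.03 and not called. The log2 fold changes were then -0.88 for Abcc8, -0.90 for Abca2, -0.97 for Abca7, -1.01 for Abcc10 and -0.59 for Abcd4. Abcf2 stood at 0.35 ± 0.08 with an edgeR adjusted p of 0.00269. The median over members moved from -0.11 to 0.03, so the lean of the whole group to lower values was not seen without that library, while the 5 calls were.

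ABC transcripts are long, with a median of 5240 bases over the 29 tested members against 2726 bases over all tested genes, and their median GC content was 51.2% against 49.5%. The 5 genes that fell have transcripts of 55.8% to 58.9% GC. Of the 9 tested members with at least 55% GC, a boundary chosen after the values were seen, all 9 were below 0 and 5 were called. Of the 20 members under 55% GC, 10 were below 0, 10 above and 0 called in edgeR. The same lay in the whole table, where 7.56% of the genes with at least 55% GC were called lower against 1.81% of the others. Across the 29 members, which are not independent replicates, Spearman's rho between GC content and the log2 fold change was -0.59. It was -0.695 for C3aRA against oxy-Hb, where no gene was called, and -0.395 for C3a against C3aRA. Over all tested genes, the level per 10 points of GC content deviated by 0.09, 0.13 and -0.07 (log2) in the oxy-Hb libraries and by -0.08, 0.11 and -0.15 in the C3a libraries. In the C3aRA libraries the deviations were -0.05, -0.05 and 0.06. The part of GC content in the uncorrected values was not tested beyond the correction that follows.

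A correction of every library for transcript length and GC content left the same 5 members called, where 4.96% of all tested genes were called. The values became smaller for 4 of them by 0.22 to 0.35, at -0.74 for Abcc8, -0.70 for Abca2, -0.80 for Abca7 and -1.06 for Abcc10, and Abcd4 stood at -0.49. With C3a replicate 2 left out as well, they ran from -0.50 for Abcd4 to -0.80 for Abcc10 and all 5 remained called, and Abcf2 was called higher (0.37, edgeR adjusted p 0.000651), where 7.64% of all genes were called. The split of all called genes moved with these settings, from 430 lower of 558 to 475 of 701 after the correction and to 663 of 697 when libraries were scaled by total count.

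**Figure D3:**
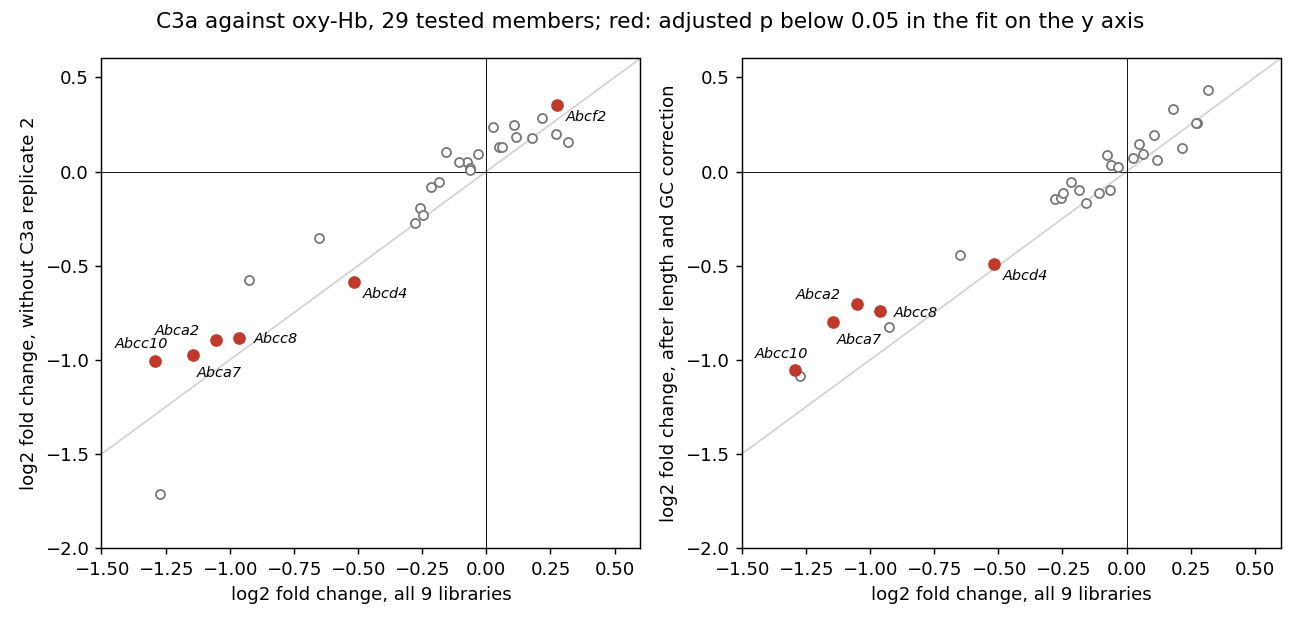
Log2 fold change of the 29 tested ABC genes for C3a against oxy-Hb, with all 9 libraries on the x axis and, on the y axis, without C3a replicate 2 (left) or after the length and GC correction (right). The grey line marks equal values and red points are called in the fit on the y axis, which are the same 5 lower genes in both panels plus Abcf2 on the left.

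The authors' deposited table for C3a calls the same 5 members at an adjusted p below 0.05 and no other of the 33, where it calls 2.21% of all listed genes. The authors' deposited table gives log2 fold changes of -0.95 for Abcc8, -1.04 for Abca2, -1.13 for Abca7 and -1.29 for Abcc10.

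C3aRA added to oxy-Hb changed no ABC gene by edgeR's test, in a comparison that called 0% of all tested genes. Of the 29 tested members, 2 had an unadjusted edgeR p below 0.05, against 1153 of all 14146 tested genes. DESeq2, with 0.0778% of all genes called, and limma-voom, with 0%, also called 0 members. The lowest p belonged to Abcc8, whose values given above do not overlap between the groups, with a log2 fold change of -0.53 ± 0.14 and an edgeR adjusted p of 0.479. Abca5 came next, at 84.1, 66.9 and 72.8 CPM with oxy-Hb and 93.2, 97.7 and 89.4 CPM with C3aRA, all 3 higher. Its log2 fold change was 0.32 ± 0.13 with an edgeR adjusted p of 0.568.

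Abca2 stood at -0.32 ± 0.16, Abcd3 at 0.21 ± 0.11 and Abcb4 at 0.26 ± 0.15, none called. The 95% interval of the Abcd4 log2 fold change ran from -0.33 to 0.18 and that of Abca7 from -0.49 to 0.26. Changes within those intervals are not excluded. Abcc8, at -0.53, was not called in this fit either, so the intervals are no limit of detection. Members were at a median of 0.04 against -0.01 over all tested genes, and 8 had groups that did not overlap, 5 higher and 3 lower, against 22.9% of all tested genes, 11.9% higher and 11% lower. The higher ones included Abca5, Abcb4, Abcd3 and Abcf2, and the 3 lower were Abcc8, Abca2 and Abcb10.

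The shared spread in this fit includes the C3a libraries, and the outcome depends on C3a replicate 2, which has no part in the contrast itself. Without it, Abcc8 (-0.53 ± 0.11, edgeR adjusted p 0.00723) and Abca5 (0.33 ± 0.09, edgeR adjusted p 0.0382) were called, 2 of 30 members where 3.25% of all genes were called. The same 2 were called when oxy-Hb and C3aRA were fitted alone, where 4.43% of all genes were called. The authors' deposited table for C3aRA likewise calls these 2 members, with adjusted p of 0.00192 for Abcc8 and 0.0174 for Abca5, where it calls 3.12% of all listed genes. The C3a and C3aRA comparisons share the oxy-Hb libraries, so the lower Abcc8 in both is not independent.

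Compared with each other, the C3a libraries were lower than the C3aRA libraries for 3 ABC genes and higher for 0. Abca7, Abca2 and Abcd4 were called of 29 tested members, where 6.19% of all tested genes were called, 3.32% lower and 2.87% higher. The log2 difference was -1.03 ± 0.18 for Abca7 (edgeR adjusted p 0.0091), -0.73 ± 0.16 for Abca2 (edgeR adjusted p 0.0197) and -0.44 ± 0.12 for Abcd4 (edgeR adjusted p 0.0466). Leaving out single libraries kept Abca7 in 8 of 9 fits and Abca2 in 5, while Abcd4 was kept in 1, the fit without C3a replicate 2. Abca7 was lost without C3aRA replicate 1, and Abca2 without C3a replicate 3 or any C3aRA replicate.

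Abcc8 and Abcc10, which were lower with C3a than with oxy-Hb alone, were not shown to differ between C3a and C3aRA. For Abcc8 the log2 difference was -0.44 with a 95% interval of -0.74 to -0.13 and an edgeR adjusted p of 0.0871. For Abcc10 it was -0.94 with an interval of -1.55 to -0.33 and an edgeR adjusted p of 0.0629. In both genes all 3 C3a libraries lay below all 3 C3aRA libraries. Abca5 showed -0.40 ± 0.13 with an edgeR adjusted p of 0.0877.

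Across the 29 members the median difference was -0.14 against 0.01 over all tested genes, with 19 below 0. Without C3a replicate 2 it was -0.08 over 30 members, 18 of them below 0. The groups did not overlap for 12 members, all lower with C3a, against 28.8% of all tested genes, 14.7% lower and 14.1% higher. Without C3a replicate 2, groups did not overlap for 12 lower and 5 higher members. Smaller groups overlap less often, and the share of all genes in that fit is not given here. In subfamily A, 5 of 7 tested members had no overlap and the median was -0.40, or -0.32 without C3a replicate 2. Without C3a replicate 2, 5 of 30 members were called where 12.5% of all genes were called. Abca7 (-0.86), Abca2 (-0.58) and Abcd4 (-0.51) were again lower, and Abca9 (0.37, edgeR adjusted p 0.0423) and Abcf2 (0.28, edgeR adjusted p 0.0128) were higher. After the length and GC correction the called members were the same 3 as in the uncorrected fit, where 9.02% of all genes were called.

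**Figure D4:**
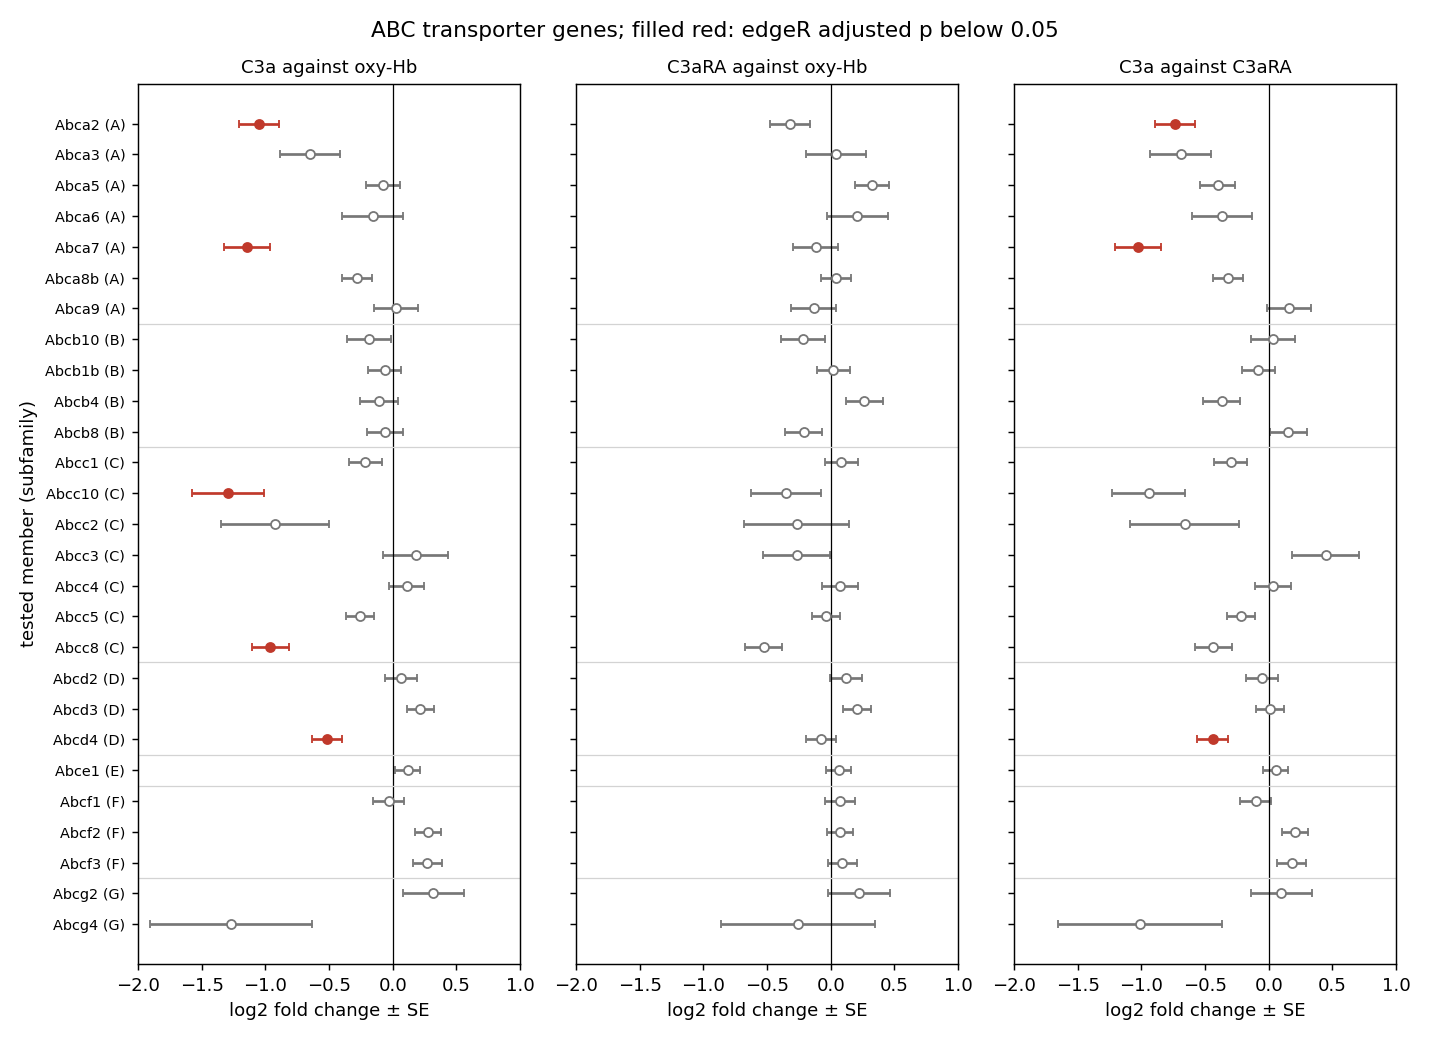
Log2 fold change ± SE of 27 of the 29 tested ABC genes in the 3 comparisons, grouped by subfamily in parentheses, with filled red points for an edgeR adjusted p below 0.05. Red points lie on the negative side only, 5 for C3a against oxy-Hb, 0 for C3aRA against oxy-Hb and 3 for C3a against C3aRA.

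Genes that work beside the ABC proteins were followed as lists. Shares of all tested genes called in edgeR were 3.94% for C3a against oxy-Hb and 6.19% for C3a against C3aRA. Called counts in these lists stand beside those shares. Tap1 and Tap2, the ABC subunits that carry peptides into the endoplasmic reticulum, were at -0.37 and -0.60 with C3a against oxy-Hb, neither called. Against C3aRA, Tap1 was lower with C3a (-0.68 ± 0.17, edgeR adjusted p 0.0355), at 25.1, 16.1 and 17.9 CPM with C3a and 32.7, 27.6 and 34.5 CPM with C3aRA, where the groups did not overlap. Of 13 tested peptide loading and MHC class I genes, the chaperone Pdia3 rose with C3a against oxy-Hb (0.46 ± 0.10) and the class I transactivator Nlrc5 fell (-0.58 ± 0.15).

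Around the mitochondrial exporters, 24 haem and iron-sulphur cluster genes were tested. With C3a against oxy-Hb the mitochondrial iron importer Slc25a37 fell (-0.62 ± 0.10) and the porphyrinogen carrier Tmem14c rose (0.53 ± 0.13). These were 2 called of 24, where 3.94% of all tested genes were called. Slc25a37 was at 141, 125 and 121 CPM with oxy-Hb and at 90.1, 83.7 and 77.7 CPM with C3a. It and the haem synthesis enzyme Ppox (-0.49 ± 0.13) were also lower with C3a than with C3aRA. The mitochondrial transporters Abcb8 and Abcb10 themselves were not called in any of the 3 comparisons.

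Of 15 peroxisomal fatty acid oxidation genes, catalase (Cat) rose with C3a against oxy-Hb (0.44 ± 0.11) and 0 fell in edgeR. None of 10 cobalamin handling genes was called beside Abcd4 in edgeR. Of the 10, 2 had an unadjusted edgeR p below 0.05, against 3411 of all 14146 tested genes. Lmbrd1, the lysosomal partner of Abcd4, was at 0.27 ± 0.12 and Mmachc, the cytosolic cobalamin chaperone, at 0.40 ± 0.13. The glutathione and leukotriene list, which supplies substrates of the C subfamily, had 17 tested genes, 17 of them above 0 with C3a. The NADPH-producing dehydrogenase Pgd (0.44 ± 0.10) was the 1 called, where 3.94% of all tested genes were called. The list's summed level was 1517 to 1651 CPM with oxy-Hb and 1799 to 2232 CPM with C3a, the highest in the C3a library that stands apart.

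Among 13 tested ribosome recycling and translation partners of Abce1 and subfamily F, Gcn1l1, the activator of the amino acid sensor kinase Gcn2, fell with C3a against oxy-Hb (-0.85 ± 0.19) and 0 rose. The initiation factor Eif5 was higher with C3a than with C3aRA (0.37 ± 0.10). The list with the excluded pair Abca1 and Abcg1 and the sterol-sensing LXR receptors had 12 tested genes and 0 called with C3a against oxy-Hb. Of the 12, 4 had an unadjusted edgeR p below 0.05, against 3411 of all 14146 tested genes. Abca1 was at -0.11 and Abcg1 at -0.28. The acyltransferase Lpcat3 was higher with C3a than with C3aRA (0.51 ± 0.13). Of 5 tested xenobiotic receptor genes, none was called with C3a against oxy-Hb, and Arnt was lower with C3a than with C3aRA (-0.58 ± 0.13). With C3aRA against oxy-Hb edgeR called 0 genes in each of these lists.

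Without C3a replicate 2, the list genes named above as changed were called by edgeR in the same direction, where 9.55% of all genes were called against oxy-Hb and 12.5% against C3aRA. Against oxy-Hb, Slc25a37 was then at -0.63, Tmem14c at 0.41, Pdia3 at 0.38, Nlrc5 at -0.40, Cat at 0.32, Pgd at 0.37 and Gcn1l1 at -0.63. Called counts of the lists grew in that fit. In the haem and iron-sulphur list 2 were higher and 3 lower, in the peroxisomal list 3 were higher, and among the translation partners 3 were higher and 1 lower. The glutathione and leukotriene list had 15 of 17 above 0 and 2 called. Abca1 moved from -0.11 to 0.14, not called, and against C3aRA it was called higher (0.45 ± 0.15, edgeR adjusted p 0.045).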

How the data were processed

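Messenger RNA of 12 BV2 samples was sequenced, with SMARTER mRNA libraries made from 1.3 ug of total RNA per the labels' protocols, and 9 of those libraries were analysed here. The authors deposited 2 tables of raw read counts per Ensembl gene, oxy-Hb beside each addition, and the same tables hold the authors' own log2 fold changes and their p-values, raw and adjusted. Per the submitters' processing notes the builds were GRCm38 and mm10. Not given in the sources used here are the aligner, how reads were counted and on which strand, and which test the authors ran. Reads of overlapping or antisense genes therefore cannot be told apart. The tables were joined by identifier. The oxy-Hb counts were the same in both (0 differed), and 9 symbols turned into dates were restored. Of the identifiers, 22908 were found in GENCODE M21, the source of transcript length and GC content.

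The deposited counts were fitted with edgeR 4.0.16 (R 4.3.3), a coefficient per group over all 9 libraries, after filterByExpr at a minimum count of 10 had left 14146 genes and TMM had scaled them. The robust quasi-likelihood F test was adjusted by Benjamini-Hochberg over all tested genes, and calls were made at an adjusted p below 0.05. The common biological coefficient of variation was 15.8%. CPM values are TMM-scaled. The SE of each log2 fold change comes from the fit, as does its 95% interval. The procedure was also run on simulated counts, drawn with no library that stands apart and no trend with length or GC content. That run does not show how the procedure handles such features. A count of 3 in a library, the floor for a count of 0, equals 0.146 to 0.232 CPM and covers counting error only. The chi-square of counts between replicates averaged 5.54 to 10.9 per gene, and 63.6 and 71.0 with C3a replicate 2, so no pair of libraries agreed within sampling noise.

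The ABC genes, the neighbouring gene lists and the marker lists were chosen with earlier results of these data known. Genes were named if called in any comparison, if among the 3 highest of a subfamily per kb, or if among the 5 lowest p of a comparison, and from each list those called or otherwise up to 3 of lowest p. Alternatives were other scalings (total count, upper quartile, DESeq2 size factors), no count filter, a minimum mean of 5 CPM, the Wald test of DESeq2 1.42.0, voom of limma 3.58.1, 2 groups alone, a replicate block, splines of length and GC content as offsets, the block with those splines, an adjusted p below 0.01, protein-coding genes alone and each library left out. The splines without C3a replicate 2 and 2 groups without it were chosen after seeing the data. Promoter windows came from RefSeq (GRCm38.p6), and for 20 of 23 the bases after the start were found in a GENCODE transcript of the gene. Some values that these rules would name are not reported here.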

Additional observations from a re-analysis of the deposited data

How the results depend on the processing

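Across 24 other settings, 16 named members gave 48 results. None of the 8 called results reversed, and Abca2, Abca7 and Abcc8 kept their calls for C3a against oxy-Hb in all 24 settings. Of 192 values of called results, 31 were no longer called, 12 of them Abcd4 against C3aRA and 8 Abcd4 against oxy-Hb.

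For C3a against oxy-Hb, 5 members were called (3.94% of all genes). This became 3 with 2 groups alone (0.72% of all genes), 3 at an adjusted p below 0.01 (0.714%), and 3 to 6 with single libraries left out (0.37% to 11.2%). For C3aRA against oxy-Hb, 0 (0% of all genes) became 2 with 2 groups alone (4.43%), a fit that no C3a library enters, 2 with the splines without C3a replicate 2 (4.69%), and 0 to 2 with single libraries left out (0% to 3.25%). For C3a against C3aRA, 3 (6.19% of all genes) became 7 with no count filter (5.75%), 5 with DESeq2 (10.8%), 1 with 2 groups alone (0.875%), 1 at an adjusted p below 0.01 (0.622%), 5 with the splines without C3a replicate 2 (13.7%), 7 with 2 groups without that library (13.9%), and 0 to 5 with single libraries left out (0.361% to 12.5%). The cause was not tested.

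Deviations from the group mean correlated at -0.04 to 0.17 between samples of the same replicate number, 2 of 9 over 0.1. Between samples of other numbers they correlated at -0.14 to 0.08, 0 of 18 over 0.1. With 3 libraries a group, these correlations cannot settle whether the numbers pair the samples. With the replicate number as a block, 5, 0 and 5 members were called in the 3 comparisons, where 5.9%, 0% and 8.55% of all genes were. Calls over all genes were then 835, 0 and 1210 against 558, 0 and 876. Over all alternatives those counts ran from 54 to 1638, 0 to 686 and 53 to 1999.

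The member median for C3aRA against oxy-Hb, 0.04, moved to -0.0215 with total count scaling, 0.012 with no count filter, -0.0036 with the splines, -0.0011 with the block and splines, and -0.0183 with the splines without C3a replicate 2, and ran from 0.0042 to 0.037 with single libraries left out. Uncalled values near 0 changed sign. With total count scaling these were Abca9 (C3a against oxy-Hb, -0.058), Abca3 and Abca8b (C3aRA against oxy-Hb, -0.0215 and -0.0181) and Abcd3 (C3a against C3aRA, -0.0161), and with voom Abca9 (-0.0238). With the splines they were Abca5 (C3a against oxy-Hb, 0.0878), Abca8b (-0.0036) and Abcd3 (-0.049), with the block and splines the same genes (0.0892, -0.0011 and -0.0498), and with the splines without C3a replicate 2 Abca5 (0.0229), Abcb4 (C3a against oxy-Hb, 0.0019), Abca8b (-0.0107) and Abcd3 (-0.00042). With 2 groups without C3a replicate 2 they were Abca5 (0.0489) and Abcb4 (0.0482). With single libraries left out, for C3a against oxy-Hb, Abca5 ran from -0.18 to 0.0523, Abca9 from -0.13 to 0.23 and Abcb4 from -0.19 to 0.0515. For C3aRA against oxy-Hb, Abca3 ran from -0.0402 to 0.0904, Abca7 from -0.20 to 0.0327, Abca8b from -0.0311 to 0.11, Abcc5 from -0.10 to 0.0168 and Abcd4 from -0.15 to 0.0421, and Abcd3 for C3a against C3aRA from -0.0421 to 0.0792.

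Depth limits the rarer members most, since Abca17, Abcb1a, Abcb6 and Abcb11 had 0 to 23 counts a library and did not pass the count filter over all 9 libraries. Abcb11 passed it without C3a replicate 2.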
